A study of Mus musculus with 23 samples.

Results

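The genes described here build, fold, glycosylate and clear secretory proteins in the endoplasmic reticulum (ER), and include the sensors of the unfolded protein response. They are 42 of the 24917 gene loci in the table of read counts, taken as the loci whose gene symbol is on a list of 7 ER stress sensors and transcription factors, 10 chaperones and co-chaperones, 6 lectin chaperones and disulfide isomerases, 9 genes of ER-associated degradation and 10 genes of the translocon and ER membrane. RNA was measured in colonic epithelium, released with EDTA from the whole colon of male C57BL/6 mice on 3 diets that began at 6 weeks of age and lasted 43 weeks. LF (control) mice ate a 10% fat diet throughout, HF (obese) mice ate a 60% fat diet throughout, and HF-LF (formerly obese) mice ate the 60% fat diet for 15 weeks and then the 10% fat diet for 28 weeks. The labels name 2 batches without saying what separates them. In batch 1 there were 4 LF, 3 HF and 4 HF-LF samples, and in batch 2 there were 4 LF, 3 HF and 5 HF-LF samples.

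Proteins bound for secretion or for membranes enter the ER through the Sec61 channel, where the TRAP complex (Ssr genes) assists insertion and the oligosaccharyltransferase adds sugars. Chaperones and disulfide isomerases then fold the chains, and chains that fail to fold are pulled back to the cytosol and destroyed. When unfolded chains pile up, the sensors IRE1 (Ern1, Ern2), PERK (Eif2ak3) and ATF6 slow translation and induce chaperone genes through XBP1, ATF4 and cleaved ATF6. The colon lining is a secretory tissue, since its goblet cells make large amounts of mucin, and IRE1 beta (Ern2) is found mainly in mucus-producing epithelia.

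Libraries held 29189922 to 65320947 counts, and the members took 0.649% to 0.885% of them. The markers of colonic epithelium were abundant in every group, with Epcam at group means of 1683 to 2067 CPM (counts scaled to libraries of equal size) and 8 of 8 markers detected. The ER of plasma cells is large, and their 8 markers summed to 661 to 870.0 CPM a sample, carried by Sdc1 (group means of 351 to 403 CPM) and Txndc5 (343 to 442 CPM), which epithelial cells also express. Prdm1 had group means of 2.49 to 4.32 CPM and Igj of 0.761 to 2.77 CPM, Mzb1, Pou2af1, Tnfrsf17 and Irf4 stayed below 1 CPM in each diet and batch, and so did the 5 B cell markers. Of the 8 plasma cell markers 5 passed the expression filter in batch 1 and over both batches, and 6 in batch 2, so the rest could not be called. None of those tested was called between HF and LF mice by edgeR, with 1 (Irf4, lower) at an unadjusted p under 0.05 over both batches (background 20.3%). No label says that the samples are all from separate mice, and some may come from the same mouse, so the p-values measure the spread between these samples, which may be partly technical. Since these are bulk samples, fewer cells of a type and less RNA per cell cannot be told apart.

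Many ER folding and translocon genes were higher in HF than in LF mice, and the median member of HF-LF mice stood near its LF level. Within batch 2, 13 members were higher in HF than in LF mice (called in edgeR's quasi-likelihood test, by the Benjamini-Hochberg method, with an adjusted p below 0.05 and more than a 1.2-fold difference), against a background of 3.03% of all genes tested, and 1 was lower (background 4.40%). The 13 were the chaperones Hspa5, Hsp90b1, Dnajc3, Manf and Creld2, the lectin Calr, the isomerases Pdia3, Pdia4 and Pdia6, the degradation factor Derl3 and the translocon genes Ssr2, Tram1 and Ostc. Ern2 was the 1 that was lower. The median log2 fold change of the 42 members was 0.22, beside -0.01 for all 14377 genes tested, and 34 members were above 0, where 48.0% of all genes were. Without LF 1, LF 2, LF 3, HF 2 or HF 3 of batch 2, 0 members passed these thresholds (background 0.103% to 2.35%), and without LF 4 there were 27 (background 8.04% higher and 9.81% lower).

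In batch 1 the HF against LF difference had nearly the same size but passed no threshold. The median over 41 members was 0.21, beside -0.00 over all 14428 genes, with 32 members above 0 (background 49.5%). By edgeR 0 members were called, as were 0% of all genes. At an unadjusted p under 0.05, 20 members were higher, where 12% of all genes were, and 1 was lower, where 10.2% were. DESeq2 called 5 members, all higher (Pdia6, Ssr1, Ssr2, Ssr4 and Ostc; background 2.29%), and limma voom with sample weights called 18 higher and 1 lower (background 8.04% and 8.75%). Without HF 2 of batch 1, edgeR called 10 higher and 1 lower (background 5.23% and 4.02%).

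Over both batches, with batch as a covariate, 18 members were higher and 2 lower in HF than in LF mice, beside backgrounds of 9% and 9.11%. The median member change was 0.24, with 35 members above 0 (background 48.7%), and 16 of the 20 calls stood when any 1 of the 23 libraries was left out. The batches hold different samples, and 38 of the 41 members tested in both (92.7%) had the same sign of change in each, beside 75.1% of 14180 genes. For no member was a difference in change between batches detected (interaction test of edgeR, smallest adjusted p = 0.700). Derl3 and Dnajb9, 2 of 42, had an unadjusted p under 0.05 in that test, as had 943 of all 14385 genes.

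For 7 members (Calr, Pdia4, Pdia6, Ssr1, Ssr2, Tram1 and Ostc) every HF sample lay above every LF sample in each batch, which held for 2.34% of genes. Taken batch by batch, 11 members were apart in this way in batch 1 (background 6.29%) and 14 in batch 2 (background 13.8%), and Syvn1 alone was apart with HF below LF, in batch 2 (background 13.5%).

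HF-LF mice were compared with HF mice to see where these genes stood after 28 weeks back on the low-fat diet; this comparison shares the HF samples with the one above. In batch 2, 14 members were lower in HF-LF than in HF mice (background 5.61%) and 3 were higher (background 8.89%). The 14 were Hspa5, Sdf2l1, Dnajc3, Manf, Calr, Pdia4, Pdia6, P4hb, Sec61b, Ssr2, Ssr3, Ssr4, Tram1 and Ostc, and the 3 were Ern1, Ern2 and Syvn1. The median member change was -0.23, beside 0.01 for all genes, and 7 members were above 0 (background 51.8%). Without HF 2 of batch 2 no member was called (background 0.0757%), without HF 3 there were 2 (background 4.71%), and without HF-LF 1 or HF-LF 4 there were 6 (background 6.13% and 6.66%).

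In batch 1 the median change from HF to HF-LF was -0.21, with 9 of 41 members above 0 (background 49.3%). No member was called by edgeR, DESeq2 or limma voom, and 0.00693% of all genes were by edgeR. At an unadjusted p under 0.05, 11 members were lower and 0 higher, where 6.04% and 4.81% of all genes were. In 10 members every HF-LF sample lay below every HF sample (background 4.07%), and in batch 2 this held for 12 (background 12.4%), while in 4 every HF-LF sample lay above (background 14.6%), with Hsp90b1 and Dnajc3 apart in both batches (background 1.10%). Over both batches 12 members were lower and 1, Ern2, was higher, beside 4.90% and 5.44% of all genes, and 6 of these 13 calls stood without any 1 of the 23 libraries.

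No member was called between HF-LF and LF mice. In batch 1, batch 2 and both batches edgeR called 0 members, as did DESeq2 and limma voom, beside 0%, 0.00696% and 0% of all genes by edgeR. The member medians were 0.02, 0.02 and 0.04. For the 10 translocon and membrane genes alone they were 0.21 in batch 1 (9 above 0), 0.00 in batch 2 (7 above 0) and 0.11 over both (9 above 0). At an unadjusted p under 0.05, 1 member was higher in batch 1 (background 2.5%) and 1 in batch 2 (background 2.15%), 0 were lower, and over both batches 0 passed in either direction.

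Sample by sample, the median member stood 0.11, 0.23 and 0.35 log2 units above the LF mean in the HF samples of batch 1 (HF 2, HF 1 and HF 3) and 0.11, 0.26 and 0.35 above it in those of batch 2 (HF 1, HF 3 and HF 2). LF 4 of batch 1 (0.14) and LF 4 of batch 2 (0.11) were the highest LF samples, and LF 4 of batch 1 had 39 of 41 members above the LF mean. HF-LF samples lay between -0.04 and 0.22 in batch 1, where HF-LF 1 was the highest, and between -0.03 and 0.10 in batch 2. By this median the LF and HF groups therefore overlapped in batch 1 through LF 4 and in batch 2 did not, where LF 4 and HF 1 were nearly equal. The translocon members ranged from 0.15 in HF 2 to 0.71 in HF 3 of batch 1, and the sensors from -0.24 to 0.07.

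**Figure D1:**
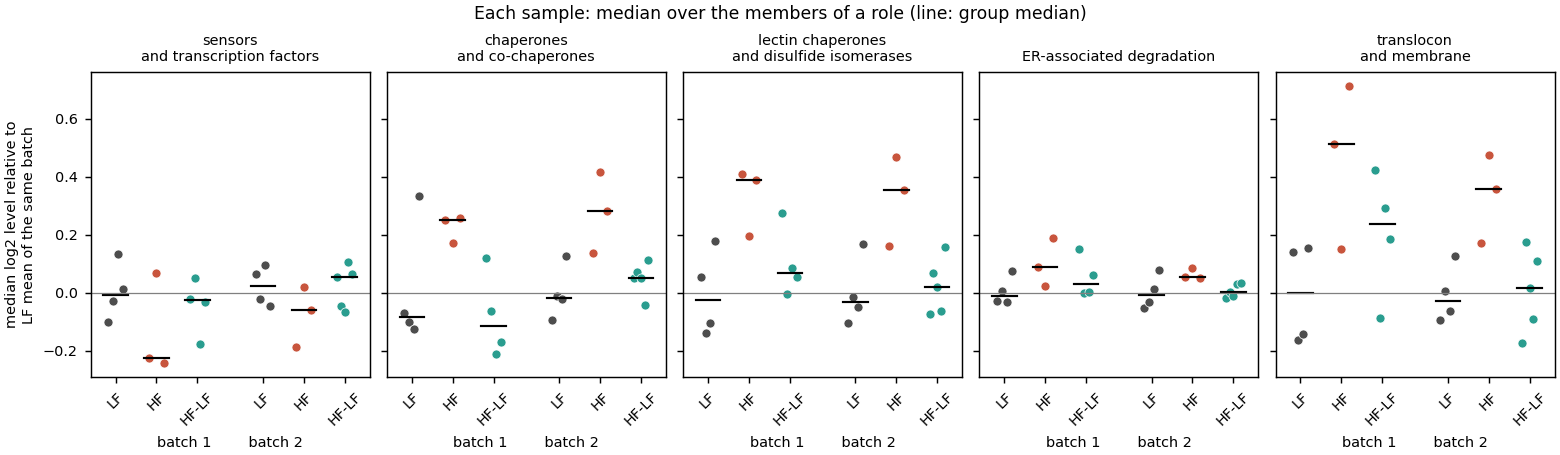
Median log2 difference from the LF mean of the same batch over the members of each role (y axis, log2 units) in each of the 23 samples, grouped on the x axis by batch and diet, with 1 panel a role, points for samples and lines at group medians. The translocon medians of the HF samples range from 0.15 to 0.71 in batch 1, and the sensor medians of the same samples from -0.24 to 0.07.

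**Figure D2:**
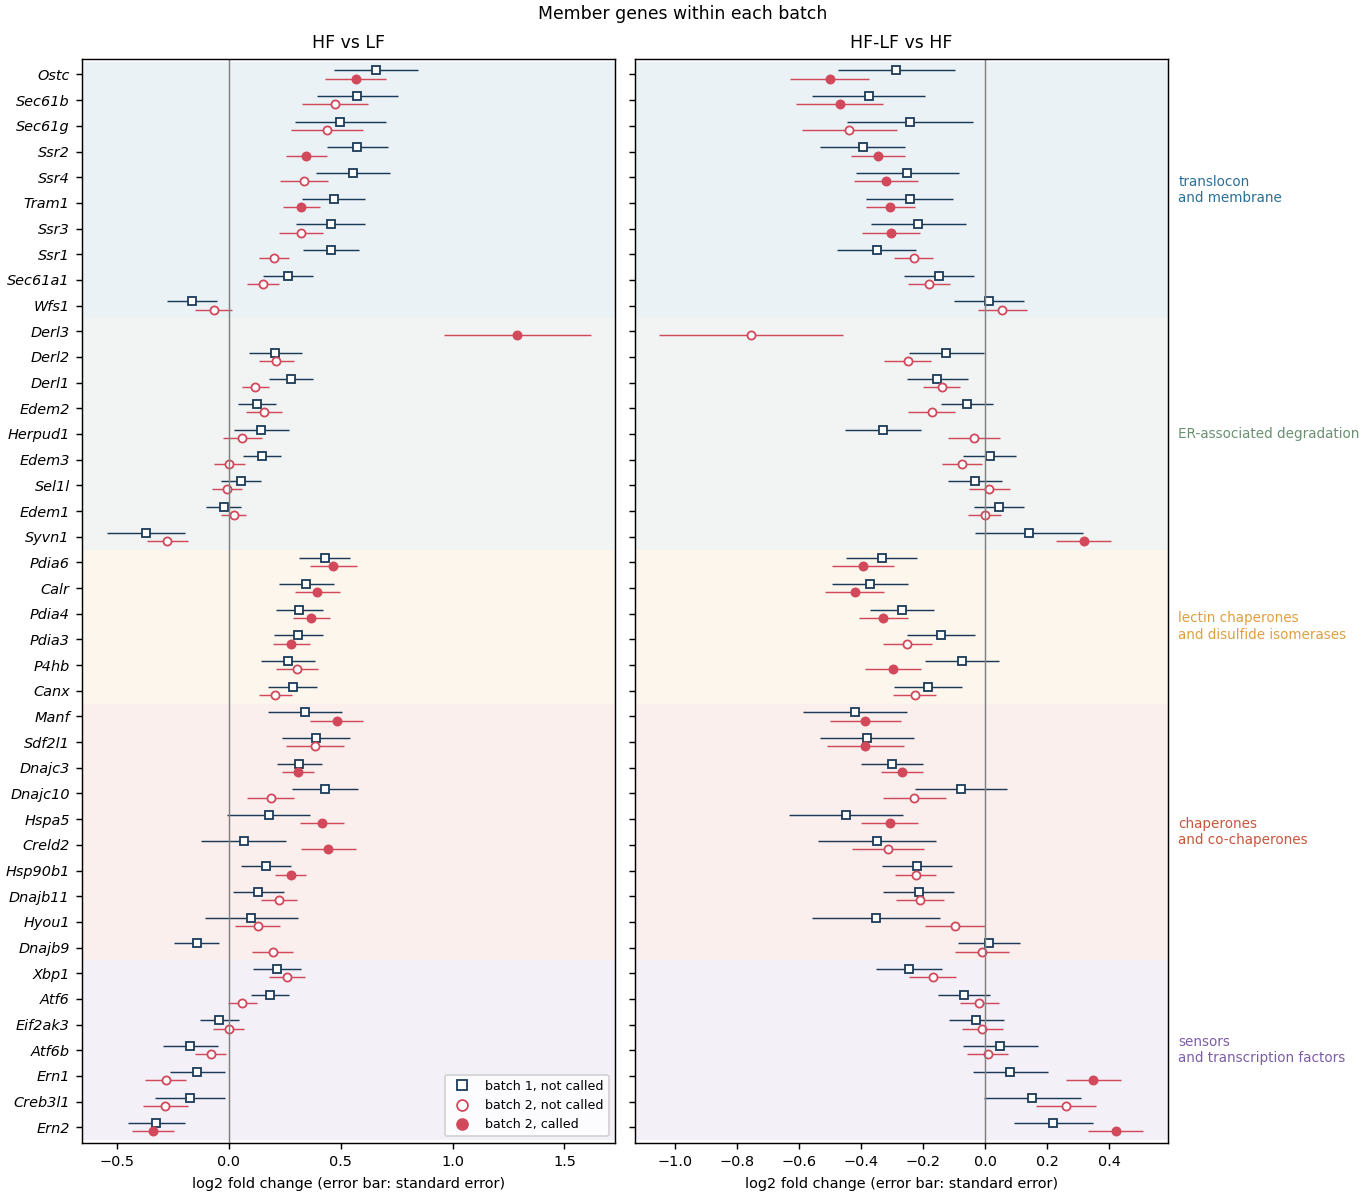
Log2 fold change of each of the 42 members, HF against LF in the left panel and HF-LF against HF in the right panel, with squares for batch 1, circles for batch 2 (filled where called) and bars of 1 standard error of the fit; Derl3 has no batch 1 point. In the left panel 31 of 41 members lie above 0 in both batches and 7 below, and in the right panel 31 lie below 0 in both and 6 above.

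Some members share a promoter sequence that the list of symbols did not use. Windows from 250 bases before to 50 after the transcription start (RefSeq, GRCm38.p6) were given for 32 of the 42 members and searched on both strands for the ER stress response element (ERSE), which is CCAAT and CCACG set 9 open bases apart and is the sequence to which NF-Y and ATF6 or XBP1 are known to bind. ERSE was found in 9 of 32 member genes (28.1%) and in 37 of 27025 genes (0.137%) with a window. The element was first drawn from promoters of ER chaperone genes, so its presence here is a description and no independent result. The matches lie in Hspa5 (chr2:34772025-34772043, + strand, -65 to -47 from the start site), Calr (chr8:84847075-84847093, - strand, -162 to -144 from the start site), Canx (chr11:50325800-50325818, - strand, -145 to -127 from the start site), Creld2 (chr15:88819520-88819538, + strand, -126 to -108 from the start site), Derl3 (chr10:75893242-75893260, + strand, -156 to -138 from the start site), Dnajc3 (chr14:118937827-118937845, + strand, -105 to -87 from the start site), Hsp90b1 (chr10:86705533-86705551, - strand, -107 to -89 from the start site), Pdia6 (chr12:17266491-17266509, + strand, -98 to -80 from the start site) and Syvn1 (chr19:6046532-6046550, + strand, -44 to -26 from the start site). A further match lies in Hsp90b1 (chr10:86705638-86705656, - strand, -212 to -194 from the start site). The strand named for each match is that of the gene. Each match is printed on that strand with 12 flanking bases on either side, and Hspa5 as a longer stretch (chr2:34771923-34772084, -167 to -6 from the start site). Capitals mark the CCAAT and CCACG ends of the element or, where it runs the other way, CGTGG and ATTGG. The element runs the other way in Calr, Creld2, Derl3 and the Hsp90b1 match at -107 to -89. In Hspa5 the capitals at the left mark TGACGTG, an XBP1 and ATF6 site known as UPRE.
Hspa5: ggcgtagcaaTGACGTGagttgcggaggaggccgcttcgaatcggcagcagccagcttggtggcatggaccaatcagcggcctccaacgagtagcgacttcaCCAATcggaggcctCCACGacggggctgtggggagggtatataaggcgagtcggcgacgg
Hsp90b1: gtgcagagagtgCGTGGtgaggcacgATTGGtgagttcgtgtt
Hsp90b1, second match: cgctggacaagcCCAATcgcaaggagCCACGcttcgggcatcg
Calr: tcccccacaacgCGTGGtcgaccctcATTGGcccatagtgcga
Canx: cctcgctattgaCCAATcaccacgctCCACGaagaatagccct
Pdia6: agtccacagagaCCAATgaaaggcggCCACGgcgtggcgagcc
Dnajc3: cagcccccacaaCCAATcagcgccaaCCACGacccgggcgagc
Creld2: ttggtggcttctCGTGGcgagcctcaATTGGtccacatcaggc
Derl3: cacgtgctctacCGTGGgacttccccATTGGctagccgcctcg
Syvn1: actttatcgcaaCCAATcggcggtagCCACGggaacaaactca

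The shorter ERSE-II (ATTGG, 1 open base and CCACG) was found in 2 members, Dnajb11 and Herpud1 (6.2%, beside 0.044% of all genes), UPRE in Hspa5 only (3.1% beside 2.224%) and the cyclic AMP element (TGACG followed by TCA) in none (2.031% of all genes). In Herpud1, where the site lies at chr8:94386377-94386387 on the + strand and is printed with 12 flanking bases on either side, the capitals mark the ERSE-II without its open position.
Herpud1: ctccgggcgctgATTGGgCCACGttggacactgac
Of the 9 members with ERSE, 7 were higher and 0 lower in HF than in LF mice in batch 2 (median 0.40 on the log2 scale). Beside these stood 2 higher of 23 members whose window lacked it (median 0.20) and 4 higher and 1 lower of the 10 without a window (background 3.03% and 4.40%). In batch 1 edgeR called 0, and the medians were 0.23 over 8 members with ERSE and 0.21 over the 23. Over both batches 4 of the 9 were higher and 1 lower, and 10 of the 23 were higher (background 9% and 9.11%), with medians of 0.30 and 0.21. Canx, which carries the element, had a log2 fold change of 0.21 ± 0.07 (adjusted p = 0.0765) in batch 2, and Syvn1 was the 1 ERSE gene below 0.

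The sensors and transcription factors divided by gene. Of 7, 2 were above 0 and 5 below in HF against LF mice in each batch. Ern2, the IRE1 form of mucus-producing epithelium, was lower in HF mice, and none of the other 6 was called against LF by edgeR. In batch 2, DESeq2, limma voom and the replicate block also called Ern1 and Creb3l1 lower and Xbp1 higher. Ern2 stood at 209, 219, 266 and 207 CPM in the LF samples of batch 1, at 176, 212 and 153 CPM in the HF samples and at 195, 232, 195 and 218 CPM in the HF-LF samples. In batch 2, Ern2 stood at 258, 228, 252 and 194 CPM in LF, 187, 168 and 198 CPM in HF and 262, 236, 232, 260.1 and 242 CPM in HF-LF samples. HF samples were the lowest, but 1 HF sample in each batch reached into the LF range, while in batch 2 all HF-LF samples lay above all HF samples. Ern2 differed between HF and LF mice by -0.34 ± 0.09 (adjusted p = 0.0425) on the log2 scale in batch 2, ± being the standard error of the fit, and by -0.33 ± 0.08 (adjusted p = 0.00781) over both batches. Both calls were lost in edgeR with length and GC offsets, at -0.25 (adjusted p = 0.0799) in batch 2 and -0.21 (adjusted p = 0.0408, a fold below 1.2) over both. Against HF mice, Ern2 in HF-LF mice was higher by 0.42 ± 0.09 (adjusted p = 0.0144) in batch 2 and by 0.33 ± 0.08 (adjusted p = 0.014) over both.

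Ern1 encodes IRE1 alpha, which splices Xbp1 mRNA. Ern1 stood at 52.5, 57.9, 60.2 and 49.7 CPM in the LF samples of batch 1, at 45.5, 58.1 and 46.4 CPM in the HF samples and at 45.3, 60.6, 49.4 and 56.1 CPM in the HF-LF samples. In batch 2, Ern1 stood at 57.6, 55.1, 61.5 and 47.1 CPM in LF, 48.3, 40.8 and 47.4 CPM in HF and 64.7, 54.4, 56.9, 59.8 and 53.9 CPM in HF-LF samples. The groups overlapped in batch 1, and in batch 2 every HF-LF sample lay above every HF sample. Ern1 was higher in HF-LF than in HF mice in batch 2 by 0.35 ± 0.09 (adjusted p = 0.0215), and over both batches the value was 0.22 ± 0.08 (adjusted p = 0.0486), a fold below 1.2. Xbp1 encodes the transcription factor made from the spliced mRNA, and the counts do not separate spliced from unspliced forms. Its log2 fold change between HF and LF mice was 0.21 ± 0.11 (adjusted p = 0.248) in batch 1, 0.26 ± 0.08 (adjusted p = 0.0531) in batch 2 and 0.24 ± 0.07 (adjusted p = 0.0124) over both, the last with a fold below 1.2. Eif2ak3 (PERK), Atf6, Atf6b and Creb3l1, a transcription factor of secretory cells, had HF against LF values over both batches of -0.02, 0.13, -0.12 and -0.22, none of them called.

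All 10 chaperones and co-chaperones were above 0 in HF against LF mice in batch 2, where 5 were called higher (background 3.03%). In batch 1, 9 of 10 were above 0 and edgeR called none. Hspa5 encodes BiP, the ER Hsp70 that also holds the sensors inactive. Hspa5 stood at 485, 500.1, 479.6 and 822 CPM in the LF samples of batch 1, at 676, 612 and 653 CPM in the HF samples and at 552, 525, 388 and 430.3 CPM in the HF-LF samples. In batch 2, Hspa5 stood at 464, 497, 517 and 549.5 CPM in LF, 577, 748 and 705 CPM in HF and 551, 548, 620.0, 486 and 528 CPM in HF-LF samples. In batch 1 the LF 4 library stood above all HF samples while the other LF samples stood below them, and in batch 2 all HF samples lay above all LF samples. Hspa5 in HF mice was 1.33-fold the LF level in batch 2, a log2 difference of 0.42 ± 0.10 (adjusted p = 0.0317), and 0.30 ± 0.11 (adjusted p = 0.0521) over both batches, which missed the threshold. In HF-LF against HF mice the difference was -0.31 ± 0.09 (adjusted p = 0.0355) in batch 2 and -0.36 ± 0.11 (adjusted p = 0.0313) over both batches. That last call was lost without HF-LF 4, HF 1 or HF 3 of batch 1 or HF 2 or HF 3 of batch 2, with adjusted p from edgeR of up to 0.0771. Hsp90b1 encodes GRP94, the ER Hsp90. Hsp90b1 stood at 396, 399.7, 412 and 523 CPM in the LF samples of batch 1, at 500.4, 484 and 473 CPM in the HF samples and at 463, 419.6, 372 and 415 CPM in the HF-LF samples. In batch 2, Hsp90b1 stood at 359.6, 392, 387 and 429.6 CPM in LF, 452, 497 and 476 CPM in HF and 406, 381, 408, 409 and 429.5 CPM in HF-LF samples. Again LF 4 of batch 1 alone exceeded the HF samples, and HF-LF samples lay below HF samples in both batches. Hsp90b1 was higher in HF than in LF mice by 0.28 ± 0.07 (adjusted p = 0.0369) in batch 2, and the value over both batches was 0.22 ± 0.06 (adjusted p = 0.015), a fold below 1.2.

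Dnajc3 encodes p58IPK, a BiP partner and inhibitor of PERK. Dnajc3 stood at 159, 154, 143 and 180.1 CPM in the LF samples of batch 1, at 197, 178 and 219 CPM in the HF samples and at 176, 155, 158 and 154 CPM in the HF-LF samples. In batch 2, Dnajc3 stood at 135, 145, 139 and 165 CPM in LF, 171, 197 and 176 CPM in HF and 147, 148, 149, 153 and 155 CPM in HF-LF samples. All HF samples of batch 2 lay above all LF and all HF-LF samples, and in batch 1 only LF 4 reached the HF range. Dnajc3 was higher in HF than in LF mice by 0.31 ± 0.07 (adjusted p = 0.0305) in batch 2 and by 0.32 ± 0.06 (adjusted p = 0.00282) over both batches, and lower in HF-LF than in HF mice, at -0.27 ± 0.07 (adjusted p = 0.0215) and -0.28 ± 0.06 (adjusted p = 0.0093). The pooled calls stood without any 1 library. Manf encodes a secreted protein that binds BiP. Manf stood at 49.6, 45.7, 45.8 and 74.8 CPM in the LF samples of batch 1, at 74.2, 62.0 and 69.0 CPM in the HF samples and at 61.7, 51.4, 43.8 and 47.6 CPM in the HF-LF samples. In batch 2, Manf stood at 57.7, 62.9, 59.8 and 71 CPM in LF, 70.4, 103 and 89.6 CPM in HF and 63.2, 71.5, 76.2, 56.8 and 68.4 CPM in HF-LF samples. Here LF 4 of each batch reached the HF range, HF 2 of batch 2 was the highest sample, and in batch 1 all HF-LF samples lay below all HF samples. Manf differed between HF and LF mice by 0.48 ± 0.12 (adjusted p = 0.0359) in batch 2 and 0.41 ± 0.11 (adjusted p = 0.0103) over both. Between HF-LF and HF mice it differed by -0.39 ± 0.11 (adjusted p = 0.0327) in batch 2 and -0.39 ± 0.10 (adjusted p = 0.0195) over both, the latter with an adjusted p of 0.0606 without HF 2 of batch 2.

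Sdf2l1 is a BiP cofactor. Sdf2l1 stood at 18.9, 16.7, 18.1 and 25.5 CPM in the LF samples of batch 1, at 26.9, 24.9 and 26.0 CPM in the HF samples and at 24.6, 18.9, 19.3 and 16.9 CPM in the HF-LF samples. In batch 2, Sdf2l1 stood at 24.9, 23.7, 22.4 and 27.0 CPM in LF, 24.2, 39.6 and 32.3 CPM in HF and 24.9, 25.7, 23.4, 21.0 and 27.4 CPM in HF-LF samples. HF 1 of batch 2 lay inside the LF range and HF 2 above all others. Sdf2l1 in batch 2 gave 0.39 ± 0.13 (adjusted p = 0.0688) for HF against LF mice and was called over both batches, at 0.39 ± 0.10 (adjusted p = 0.0103). In HF-LF against HF mice it was lower, at -0.39 ± 0.12 (adjusted p = 0.0435) in batch 2 and -0.38 ± 0.10 (adjusted p = 0.0185) over both, and without HF 2 of batch 2 the pooled adjusted p was 0.0583. Creld2 encodes a disulfide isomerase-like protein induced by ER stress. Creld2 stood at 22.0, 27.0, 24.8 and 42.2 CPM in the LF samples of batch 1, at 30.9, 30.7 and 29.6 CPM in the HF samples and at 27.5, 26.5, 19.4 and 22.0 CPM in the HF-LF samples. In batch 2, Creld2 stood at 24.6, 24.2, 27.9 and 26.5 CPM in LF, 26.9, 41.7 and 36.8 CPM in HF and 28.6, 28.6, 30.5, 23.4 and 30.3 CPM in HF-LF samples. LF 4 of batch 1 was the highest of that batch, and HF 1 of batch 2 lay in the LF range. Creld2 was called in batch 2 only for HF against LF mice, at 0.44 ± 0.12 (adjusted p = 0.0428), with 0.25 ± 0.13 (adjusted p = 0.126) over both batches. Dnajc10 encodes ERdj5, a disulfide reductase. Dnajc10 stood at 146, 127, 151 and 151 CPM in the LF samples of batch 1, at 205, 172 and 204 CPM in the HF samples and at 218, 131, 179.8 and 205 CPM in the HF-LF samples. In batch 2, Dnajc10 stood at 164, 172, 171 and 187 CPM in LF, 174, 208 and 211 CPM in HF and 149, 181, 142, 171 and 201 CPM in HF-LF samples. All HF samples of batch 1 lay above all LF samples, and in batch 2 the groups overlapped. Dnajc10 was called over both batches, at 0.31 ± 0.10 (adjusted p = 0.0323), a call lost without LF 2, HF 1 or HF 3 of batch 1 or HF 2 or HF 3 of batch 2 (adjusted p up to 0.0684). Hyou1, Dnajb9 and Dnajb11 were not called in any comparison, and Dnajb9 (ERdj4), a strong target of XBP1, stood at -0.14 in batch 1 and 0.20 in batch 2.

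All 6 lectin chaperones and disulfide isomerases were above 0 in HF against LF mice and below 0 in HF-LF against HF mice in each batch, with HF against LF values of 0.27 to 0.43 in batch 1 and 0.21 to 0.47 in batch 2. Calr encodes calreticulin, which holds glycoproteins during folding. Calr stood at 402, 352, 371 and 456 CPM in the LF samples of batch 1, at 523, 465 and 520.2 CPM in the HF samples and at 466, 392, 355 and 343 CPM in the HF-LF samples. In batch 2, Calr stood at 439, 466, 445 and 569.8 CPM in LF, 575, 695 and 625 CPM in HF and 436, 469, 475, 445 and 535 CPM in HF-LF samples. All HF samples lay above all LF samples in both batches, and above all HF-LF samples in batch 2. Calr was higher in HF than in LF mice by 0.40 ± 0.10 (adjusted p = 0.0369) in batch 2 and 0.37 ± 0.08 (adjusted p = 0.00514) over both, and lower in HF-LF than in HF mice, at -0.42 ± 0.09 (adjusted p = 0.0167) and -0.39 ± 0.08 (adjusted p = 0.00778). The pooled calls stood without any 1 library. Pdia3 encodes ERp57, the isomerase that works with calreticulin. Pdia3 stood at 379, 341, 328 and 393 CPM in the LF samples of batch 1, at 477, 399 and 466 CPM in the HF samples and at 458, 358, 392 and 415 CPM in the HF-LF samples. In batch 2, Pdia3 stood at 329, 352, 343 and 405 CPM in LF, 399.7, 467 and 435 CPM in HF and 337, 377, 361, 352 and 396 CPM in HF-LF samples. LF 4 of batch 2 lay inside the HF range, and the HF-LF samples of batch 2 lay below it. Pdia3 was higher in HF than in LF mice by 0.28 ± 0.08 (adjusted p = 0.0492) in batch 2 and 0.30 ± 0.07 (adjusted p = 0.00664) over both. Its membrane-bound relative in the cycle, Canx (calnexin), reached 0.25 ± 0.06 (adjusted p = 0.00941) over both, a fold below 1.2.

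Pdia4 encodes ERp72. Pdia4 stood at 135, 123, 129 and 162 CPM in the LF samples of batch 1, at 183, 166 and 164 CPM in the HF samples and at 158, 133, 137 and 139 CPM in the HF-LF samples. In batch 2, Pdia4 stood at 142, 148, 149.9 and 160.4 CPM in LF, 166, 212 and 203 CPM in HF and 150.2, 156, 155, 143 and 169 CPM in HF-LF samples. All HF samples lay above all LF samples in both batches, and HF-LF samples of batch 1 lay below all HF samples. Pdia4 was higher in HF than in LF mice by 0.37 ± 0.08 (adjusted p = 0.028) in batch 2 and 0.34 ± 0.07 (adjusted p = 0.00307) over both batches. In HF-LF mice it was lower than in HF mice, at -0.33 ± 0.08 (adjusted p = 0.0188) and -0.30 ± 0.06 (adjusted p = 0.011). Pdia6 encodes P5, an isomerase that also acts on IRE1. Pdia6 stood at 116, 102, 106 and 137 CPM in the LF samples of batch 1, at 159.6, 142 and 164 CPM in the HF samples and at 141, 118, 118 and 116 CPM in the HF-LF samples. In batch 2, Pdia6 stood at 142, 147, 145 and 159 CPM in LF, 169, 235 and 210.4 CPM in HF and 141, 165, 150.1, 142 and 182 CPM in HF-LF samples. HF and LF samples were apart in both batches, with HF 2 of batch 2 the highest of all. Pdia6 had the smallest pooled adjusted p of the members: HF exceeded LF by 0.47 ± 0.11 (adjusted p = 0.0293) in batch 2 and by 0.45 ± 0.08 (adjusted p = 0.00194) over both, 1.37-fold. HF-LF against HF gave -0.39 ± 0.10 (adjusted p = 0.022) and -0.36 ± 0.08 (adjusted p = 0.0104). P4hb encodes protein disulfide isomerase itself. P4hb stood at 733, 634, 646 and 761 CPM in the LF samples of batch 1, at 898, 723 and 879 CPM in the HF samples and at 886, 689, 801 and 788 CPM in the HF-LF samples. In batch 2, P4hb stood at 773, 809, 799.9 and 925 CPM in LF, 920.1, 1112 and 1031 CPM in HF and 729, 896, 847, 776 and 909 CPM in HF-LF samples. LF and HF samples overlapped in both batches, and in batch 2 the HF-LF samples lay below all HF samples. P4hb was called over both batches for HF against LF, at 0.29 ± 0.08 (adjusted p = 0.0123), and in batch 2 for HF-LF against HF, at -0.30 ± 0.09 (adjusted p = 0.036). Without HF 2 of batch 2 the pooled value was 0.26, a fold below 1.2. Per kilobase of exon, P4hb was the most abundant member in LF mice (242 ± 22.1 CPM per kilobase in batch 1 and 289 ± 23.5 in batch 2, SD, n = 4), followed by Calr (181 ± 20.8 and 219.7 ± 28.0).

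**Figure D3:**
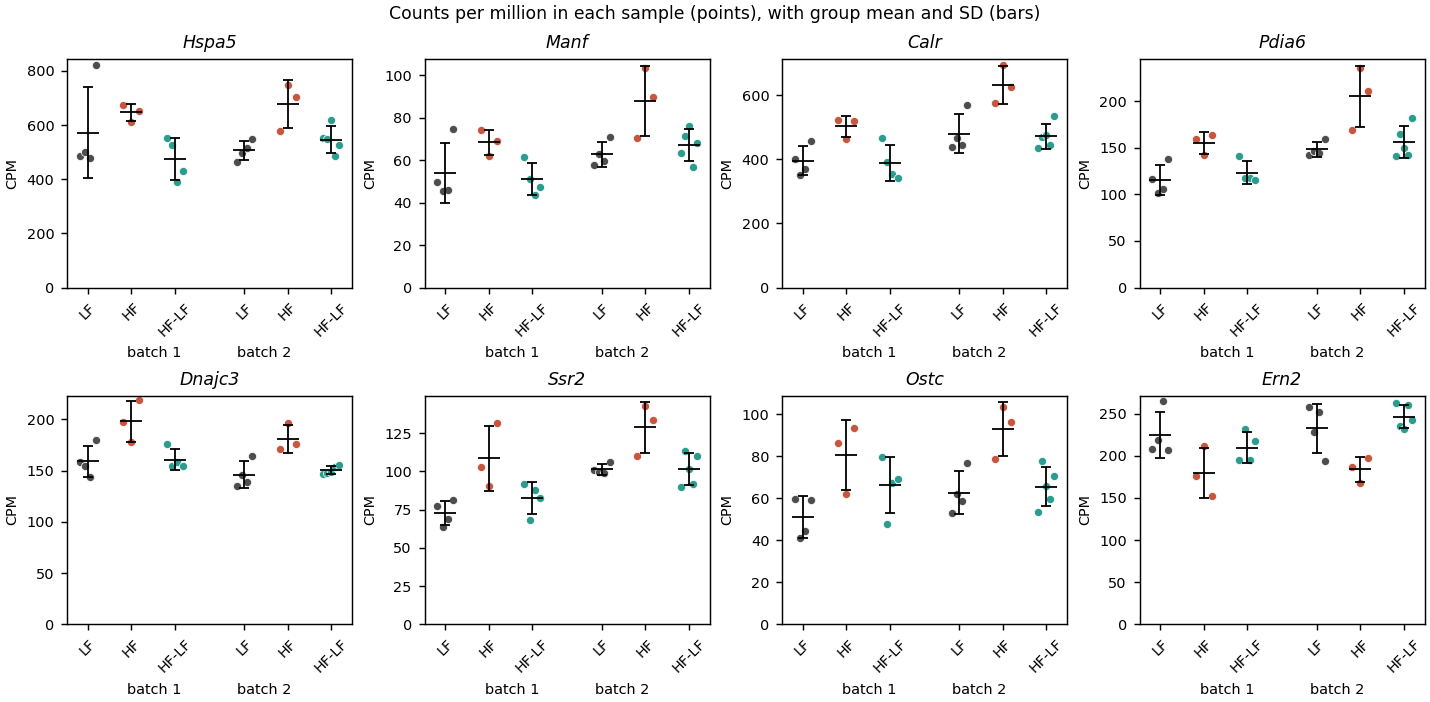
CPM of selected members in each of the 23 samples (y axis, CPM, separate scale in each panel), grouped on the x axis by batch and diet, with lines at the group means and bars of 1 SD. Calr lies at 465 to 523 CPM in HF and 352 to 456 in LF samples of batch 1, and at 575 to 695 and 439 to 569.8 in batch 2.

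Of 9 members of ER-associated degradation, edgeR called 1 higher and none lower in HF than in LF mice in batch 2 (background 3.03% and 4.40%). Over both batches 1 was higher and 1 lower (background 9% and 9.11%). Syvn1 encodes HRD1, the ubiquitin ligase of the retrotranslocation channel, and was lower in HF mice. Syvn1 stood at 45.3, 59.6, 64.4 and 65.4 CPM in the LF samples of batch 1, at 43.6, 56.1 and 36.6 CPM in the HF samples and at 45.1, 64.0, 42.7 and 48.6 CPM in the HF-LF samples. In batch 2, Syvn1 stood at 59.8, 47.8, 60.3 and 47.7 CPM in LF, 44.8, 42 and 46.7 CPM in HF and 57.7, 54.3, 61.0, 51.8 and 52.7 CPM in HF-LF samples. In batch 2 all HF samples lay below all LF and all HF-LF samples, and in batch 1 the groups overlapped. Syvn1 in HF against LF mice gave -0.27 ± 0.09 (adjusted p = 0.065) in batch 2, where DESeq2 (adjusted p = 0.0381) and the replicate block (adjusted p = 0.0109) called it lower, and was called over both batches at -0.32 ± 0.10 (adjusted p = 0.0238). In HF-LF against HF mice it was higher in batch 2 by 0.32 ± 0.09 (adjusted p = 0.0277). The pooled call was lost without LF 2, LF 3 or HF 3 of batch 1 or HF 2 of batch 2, with adjusted p up to 0.0832. It was also lost in edgeR with length and GC offsets, at -0.16 (adjusted p = 0.149). Its partner Sel1l gave 0.06 and -0.01 in the batches and was not called.

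Derl3 encodes a derlin induced by ER stress and was near the detection limit, with 4 to 38 counts a library, so its values carry a large counting error. Derl3 stood at 0.222, 0.137, 0.244 and 0.279 CPM in the LF samples of batch 1, at 0.237, 0.213 and 0.203 CPM in the HF samples and at 0.178, 0.204, 0.108 and 0.249 CPM in the HF-LF samples. In batch 2, Derl3 stood at 0.245, 0.270, 0.242 and 0.137 CPM in LF, 0.455, 0.598 and 0.581 CPM in HF and 0.458, 0.362, 0.266, 0.163 and 0.367 CPM in HF-LF samples. A count of 3 corresponds to 0.0459 to 0.103 CPM at these depths. Only batch 2 separated HF from LF samples, and in batch 1 the gene was below the expression filter. Derl3 was higher in HF mice by 1.29 ± 0.33 (adjusted p = 0.0374) in batch 2 and by 0.72 ± 0.26 (adjusted p = 0.0398) over both, the latter lost in 9 of the 23 fits without 1 library (LF 2 or HF 1 of batch 1, and any LF or HF sample of batch 2; adjusted p up to 0.1), by DESeq2, without the expression filter and with length and GC offsets. Derl1 and Derl2, its more abundant relatives, gave 0.20 and 0.21 over both batches, with folds below 1.2. Edem1, Edem2 and Edem3, which trim mannose from misfolded glycoproteins, and Herpud1, a stress-induced HRD1 partner, gave 0.00, 0.15, 0.08 and 0.11 and were not called in any comparison.

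The translocon and ER membrane genes had a median change of 0.48 in batch 1 and 0.33 in batch 2 for HF against LF mice. Of 10, 8 were higher over both batches (background 9%), and Sec61a1 (0.21, fold below 1.2) and Wfs1 (-0.11) were not called. Ostc encodes an oligosaccharyltransferase subunit that docks the enzyme to the translocon. Ostc stood at 59.7, 41.0, 44.2 and 59.1 CPM in the LF samples of batch 1, at 86.1, 61.8 and 93.6 CPM in the HF samples and at 79.8, 47.9, 67.4 and 69.2 CPM in the HF-LF samples. In batch 2, Ostc stood at 52.8, 62.0, 58.4 and 77.0 CPM in LF, 78.5, 104 and 96.1 CPM in HF and 53.5, 77.5, 66.0, 59.8 and 70.6 CPM in HF-LF samples. All HF samples lay above all LF samples in both batches, and in batch 2 above all HF-LF samples. Ostc was 1.53-fold higher in HF than in LF mice over both batches, 0.61 ± 0.13 (adjusted p = 0.00462), and 0.57 ± 0.13 (adjusted p = 0.0334) in batch 2. In HF-LF against HF mice it was lower, at -0.50 ± 0.13 (adjusted p = 0.0218) in batch 2 and -0.40 ± 0.12 (adjusted p = 0.0336) over both. The last call was lost without HF-LF 2, HF 1 or HF 3 of batch 1 or HF-LF 1, HF 2 or HF 3 of batch 2, with adjusted p up to 0.0826. Tram1 encodes a membrane protein beside the channel. Tram1 stood at 182, 158, 154 and 186 CPM in the LF samples of batch 1, at 240.2, 189 and 276 CPM in the HF samples and at 229, 159, 209 and 198 CPM in the HF-LF samples. In batch 2, Tram1 stood at 161, 181, 170.2 and 193 CPM in LF, 200.2, 241 and 221 CPM in HF and 167, 193, 179, 165 and 189.6 CPM in HF-LF samples. Its groups lay apart in the same way as those of Ostc. Tram1 was higher in HF than in LF mice by 0.32 ± 0.08 (adjusted p = 0.037) in batch 2 and 0.40 ± 0.09 (adjusted p = 0.00539) over both, and lower in HF-LF than in HF mice, at -0.31 ± 0.08 (adjusted p = 0.0222) and -0.27 ± 0.08 (adjusted p = 0.0324). Without HF-LF 2, HF 1 or HF 3 of batch 1 or HF 2 or HF 3 of batch 2 the last of these no longer passed (adjusted p up to 0.0801).

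The TRAP complex, which binds the translocon and helps chains with weak signal sequences, is encoded by Ssr1 to Ssr4. Ssr1 stood at 171, 154, 157 and 179 CPM in the LF samples of batch 1, at 217, 192 and 272 CPM in the HF samples and at 208, 156, 172 and 177 CPM in the HF-LF samples. In batch 2, Ssr1 stood at 162, 168, 165 and 178 CPM in LF, 180.3, 212 and 188 CPM in HF and 166, 167, 154, 161 and 176 CPM in HF-LF samples. Ssr1 separated HF from LF samples in both batches and HF from HF-LF samples in batch 2. Ssr1 was called over both batches, at 0.33 ± 0.07 (adjusted p = 0.00612) for HF against LF and -0.29 ± 0.07 (adjusted p = 0.017) for HF-LF against HF, the second with a fold below 1.2 (0.23) without HF 3 of batch 1. Ssr2 stood at 77.3, 63.6, 68.7 and 81.6 CPM in the LF samples of batch 1, at 103, 90.7 and 132 CPM in the HF samples and at 91.6, 68.1, 87.9 and 82.7 CPM in the HF-LF samples. In batch 2, Ssr2 stood at 101, 99.4, 98.7 and 106 CPM in LF, 110.4, 143 and 133 CPM in HF and 89.8, 114, 102, 91.9 and 110.1 CPM in HF-LF samples. Again all HF samples exceeded all LF samples in both batches. Ssr2 was higher in HF than in LF mice by 0.35 ± 0.09 (adjusted p = 0.0395) in batch 2 and 0.46 ± 0.09 (adjusted p = 0.00308) over both, and lower in HF-LF than in HF mice, at -0.35 ± 0.09 (adjusted p = 0.0222) and -0.37 ± 0.09 (adjusted p = 0.0138). Ssr3 stood at 202, 156, 157 and 187 CPM in the LF samples of batch 1, at 250.1, 192 and 279.9 CPM in the HF samples and at 232, 159, 221 and 218 CPM in the HF-LF samples. In batch 2, Ssr3 stood at 184, 215, 192 and 228 CPM in LF, 229, 289 and 252 CPM in HF and 181, 232, 205, 202 and 219 CPM in HF-LF samples. For Ssr3 the HF and LF samples were apart in batch 2 only. Ssr3 was called over both batches for HF against LF, at 0.39 ± 0.10 (adjusted p = 0.00862), and in batch 2 for HF-LF against HF, at -0.30 ± 0.09 (adjusted p = 0.0381). Ssr4 stood at 93.6, 74.0, 70.9 and 96.9 CPM in the LF samples of batch 1, at 126, 96.3 and 148 CPM in the HF samples and at 113, 80.6, 119 and 102 CPM in the HF-LF samples. In batch 2, Ssr4 stood at 107, 114, 106 and 122 CPM in LF, 127, 152 and 146 CPM in HF and 93.9, 134, 121, 98.4 and 121 CPM in HF-LF samples. Ssr4 too was apart in batch 2 only. It was called at 0.44 ± 0.11 (adjusted p = 0.00785) over both batches for HF against LF, and at -0.32 ± 0.10 (adjusted p = 0.0438) in batch 2 for HF-LF against HF.

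Sec61b and Sec61g encode the small subunits of the channel. Sec61b stood at 62.5, 48.6, 44.9 and 63.7 CPM in the LF samples of batch 1, at 91.1, 58.2 and 96.1 CPM in the HF samples and at 76.9, 52.6, 65.7 and 57.2 CPM in the HF-LF samples. In batch 2, Sec61b stood at 60.9, 67.1, 61.7 and 79.0 CPM in LF, 77.7, 106 and 96.1 CPM in HF and 52.1, 82.9, 73.0, 56.2 and 73.4 CPM in HF-LF samples. LF and HF samples overlapped in both batches, in batch 1 through a low HF 2 and in batch 2 through a high LF 4. Sec61b was higher in HF than in LF mice over both batches by 0.53 ± 0.12 (adjusted p = 0.00724), with 0.48 ± 0.15 (adjusted p = 0.0548) in batch 2. It was lower in HF-LF than in HF mice, at -0.47 ± 0.14 (adjusted p = 0.0348) in batch 2 and -0.42 ± 0.12 (adjusted p = 0.0251) over both, the latter lost without HF 1 or HF 3 of batch 1 or HF 2 of batch 2 (adjusted p up to 0.0690). Sec61g stood at 22.9, 17.1, 15.6 and 23.8 CPM in the LF samples of batch 1, at 33.2, 19.6 and 31.5 CPM in the HF samples and at 28.6, 18.5, 25.7 and 22.2 CPM in the HF-LF samples. In batch 2, Sec61g stood at 18.1, 19.4, 18.5 and 26.8 CPM in LF, 24.7, 31.5 and 28.1 CPM in HF and 15.4, 26.4, 20.8, 19 and 22.0 CPM in HF-LF samples. Sec61g showed the same low HF 2 and high LF 4. It was called over both batches for HF against LF, at 0.47 ± 0.14 (adjusted p = 0.0182). The large subunit Sec61a1 stood at 0.27 and 0.15 in the batches, and Wfs1, wolframin, at -0.17 and -0.07.

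Exon length moved with these differences. Across the 14342 genes of batch 1 and the 14290 of batch 2 with a length, Spearman's rho between summed exon length and the HF against LF log2 fold change was -0.159 and -0.306, and across the members it was -0.372 (n = 41) and -0.604 (n = 42). These correlations are across genes of the same libraries and are given as a description. Among the shortest of 4 equal groups of genes (up to 1968 bases) the median change was 0.09 over all genes and 0.56 over 7 members in batch 1, and 0.11 over all genes and 0.41 over 8 members in batch 2. Among the longest (above 4866 bases) it was -0.06 over all genes and 0.15 over 7 members in batch 1, and -0.13 and 0.02 in batch 2. GC content moved too, with rho of -0.347 and -0.225 over all genes and -0.356 and -0.201 across the members. Among genes above 54.94% GC, the batch 1 median was -0.16 over all genes and -0.17 over 8 members (3 above 0). In batch 2 it was -0.10 over all genes and -0.07 over 9 members (4 above 0). Ern2, Atf6b, Creb3l1, Syvn1 and Wfs1, each below 0 in both batches, are among these members. When length and GC offsets were fitted for each sample (chosen after seeing the data), the member median stayed at 0.19 in batch 1, 0.20 in batch 2 and 0.21 over both batches, but fewer were called: 3 in batch 2 (Dnajc3, Manf and Ostc; background 0.786%) and 11 over both (background 3.73%), all higher. The part of RNA length or quality in the differences was not tested further.

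**Figure D4:**
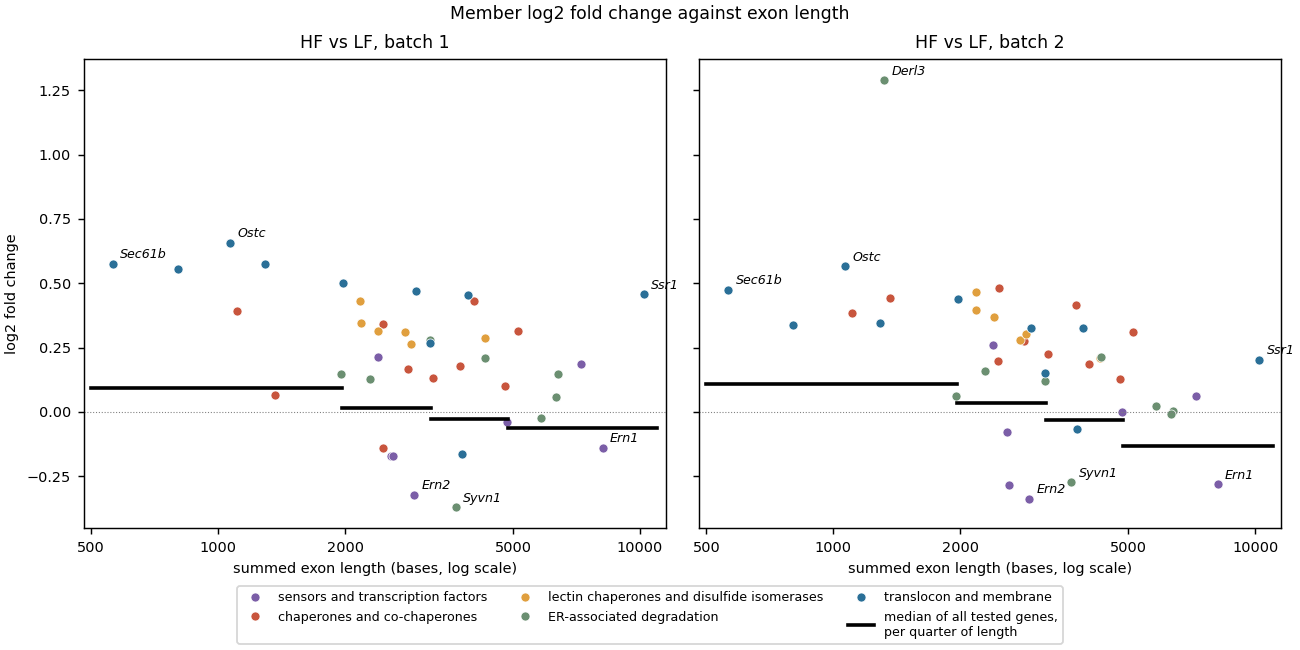
HF against LF log2 fold change of each member (y axis) against its summed exon length in bases (x axis, log scale), batch 1 left and batch 2 right, colored by role; black lines mark the median of all tested genes in each of 4 length groups. Median lines fall from 0.09 to -0.06 in batch 1 and from 0.11 to -0.13 in batch 2, and the short translocon genes Ostc and Sec61b lie above them.

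Other genes of the same pathways were taken from lists and described in the same way, and their counts stand beside the shares of all genes called, 3.03% higher in batch 2 and, over both batches, 9% higher and 9.11% lower. Of 27 other genes of targeting, the translocon, the oligosaccharyltransferase and signal peptidase, 6 were higher in HF than in LF mice in batch 2 and 13 over both batches, with 0 lower, and the pooled median was 0.26. Magt1 (0.34 ± 0.06), Ost4 (0.45 ± 0.09) and Spcs3 (0.45 ± 0.10), subunits of the oligosaccharyltransferase and of signal peptidase, had the smallest adjusted p-values. Of 20 other folding genes 4 were higher over both batches and 0 lower, with a median of 0.10. They were Erp44, a retention factor of the early secretory pathway (0.30 ± 0.07), the cyclophilin Ppib (0.39 ± 0.09), the mucin-folding isomerase Agr2 (0.58 ± 0.15) and Fkbp11, a prolyl isomerase that is named because it completes the count. Of 17 other degradation genes 0 were called by edgeR in HF against LF mice in either batch or over both. At an unadjusted p under 0.05, 6 of these were higher and 1 lower over both batches (background 21.8% and 20.3%). Of 10 other stress transducers and their proteases, Creb3l3 alone was called, higher in HF mice over both batches by 1.07 ± 0.24 (adjusted p = 0.00573).

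Markers of cell types that share or dilute these genes were measured in the same comparisons. Of 8 goblet cell markers 7 were above 0 in HF against LF mice in batch 2 (median 0.47) and 3 in batch 1 (median -0.21). In batch 2, 3 were called higher (Tff3, Spink4 and Ang4; background 3.03%), and in batch 1 0 were called. Muc2, the most abundant of the 8, went the other way in batch 2, with group means of 21965 CPM in LF and 14866 CPM in HF samples. The summed level of the 8 was 35706 to 42231 CPM in LF and 31202 to 45553 CPM in HF samples of batch 2. Of 6 cycling cell markers 6 were above 0 in batch 1 (median 0.73) and 5 in batch 2 (median 0.21), and 5 were called higher over both batches (background 9%). Their summed level ranged from 260.2 to 438 CPM in LF and from 375 to 641 CPM in HF samples of batch 1, and from 476 to 554 and from 490.1 to 581 CPM in batch 2. Smooth muscle markers had summed levels of 5.86 to 31.0 CPM in LF and 0.858 to 4.68 CPM in HF samples of batch 2, with a median change of -2.40. Fibroblast markers had a median of -1.10 in the same comparison, at summed levels of 9.29 to 33.4 and 4.29 to 16 CPM. In batch 1 the medians were 0.16 for smooth muscle markers, with 4 of 6 above 0, and -0.26 for fibroblast markers. Of 5 enteroendocrine markers 2 were higher in batch 2 (background 3.03%) and over both (background 9%), Pyy and Gcg. The part of cell composition in the member differences was not tested.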

How the data were processed

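RNA was measured in 23 samples of colonic epithelium by stranded, ribosomal RNA-depleted sequencing. The file deposited by the authors holds raw counts of reads per gene locus, 1 column a sample. Per the submitters' processing notes and the study's methods, reads were trimmed with cutadapt 1.2.1, mapped to mm10 with STAR 2.5 and counted with featureCounts 1.5.0-p1 from Subread. The gene models and strand setting are not given in the sources used here, so overlapping genes may share reads.

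Models were fitted in edgeR 4.0.16 (R 4.3.3) after TMM scaling and edgeR's default expression filter, which kept 14428 genes in batch 1, 14377 in batch 2 and 14385 over both. Each fit held all 3 diets, and the pooled fit had batch as a covariate. A gene was called when its quasi-likelihood p, adjusted by Benjamini-Hochberg over all genes tested, was under 0.05 and its fold above 1.2. CPM are counts divided by the TMM-scaled library size times 1000000. Counting floors (3 counts) cover counting error alone, as there were no molecular identifiers. The paper's methods name fewer mice than there are samples, so some samples may share a mouse. Libraries are named by diet, replicate number and batch. Replicates of a group differed by more than sampling noise, so each file was used as its own library, which does not show that libraries come from different mice.

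The 42 members and all lists were chosen with earlier results of these data known. All members are described by role; CPM in every sample is printed for the 24 members called in at least 1 of 9 comparisons; of other lists, up to 3 genes with the smallest adjusted p are named, and others are named only to complete a count. Exon lengths and GC content are of GENCODE vM21, and promoter windows of RefSeq. The code was tested on simulated data. Alternatives were DESeq2 1.42.0, limma 3.58.1 voom with sample weights, RLE scaling, no expression filter, no fold threshold, fits of the compared groups alone, the replicate number as a block, each library left out and, chosen after seeing the data, length and GC offsets over 20 bins each.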

Additional observations from a re-analysis of the deposited data

Results flagged for a closer look

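In each group of 4 or 5 samples, the highest and the lowest sample of each member were compared with the rest of the group by Dixon's test, and 10 of 168 tests (5.95%) passed the critical value, where chance gives about 1 in 20 (5%). The HF groups, with 3 samples, were not tested. LF 4 of batch 1 was the outlying sample in 5 of the 10, always as the highest. In that library Hspa5 stood at 822 CPM, where the other LF samples of the batch stood at 480 to 500.1 CPM. Hsp90b1 stood at 523 CPM (others 396 to 412), Manf at 74.8 CPM (others 45.7 to 49.6), Xbp1 at 264 CPM (others 206 to 215) and Sec61a1 at 261 CPM (others 227 to 232).

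LF 4 of batch 2 was the highest of its group for Herpud1, at 268 CPM (others 206 to 212), and for Sec61g, at 26.8 CPM (others 18.1 to 19.4). Pdia6 was highest in HF-LF 1 of batch 1, at 141 CPM (others 116 to 118). Among the HF-LF samples of batch 2, Creld2 was lowest in HF-LF 4, at 23.4 CPM (others 28.6 to 30.5), and Edem2 was lowest in HF-LF 1, at 46.2 CPM (others 55.8 to 57.1). Without LF 4 of batch 1, the median HF against LF change of the members in batch 1 was 0.31 in place of 0.21, and edgeR still called 0 members.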

How the results depend on the processing

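The medians of the members kept their direction under each alternative for HF against LF and HF-LF against HF mice, in either batch and over both, and the counts of called members moved. For HF against LF in batch 1, where edgeR called 0, DESeq2 called 5, limma voom with sample weights 19 and the replicate block 2, and leaving out 1 library gave 0 to 11. Over all genes the main fit called 0. DESeq2 called 281 higher and 199 lower, limma voom 1160 and 1262, and the replicate block 30 and 62. In batch 2, where 14 were called, DESeq2 called 23, limma voom 22, the replicate block 23 and the length and GC offsets 3, and leaving out 1 library gave 0 to 27. Calls over all 14377 genes moved too, from 436 higher and 633 lower in the main fit. They became 834 and 1021 of 12995 with DESeq2, 844 and 1147 with limma voom and 892 and 1188 with the replicate block. The offsets gave 113 and 221. Over both batches the 20 calls became 11 with the offsets, while over all genes 1294 higher and 1311 lower became 537 and 668. For HF-LF against HF mice the offsets gave 7 in batch 2 (17 as reported) and 7 over both batches (13 as reported), and leaving out 1 library gave 0 to 21 and 7 to 19. Over all genes the offsets gave 755 higher and 387 lower in batch 2, where the main fit gave 1278 and 806. Over both batches they gave 436 and 350, where the main fit gave 783 and 705. For HF-LF against LF mice each alternative gave 0. ERSE with 1 mismatch allowed was found in 15 members in place of 9, and in 1.724% of all genes with a window in place of 0.137%. The cause of these shifts was not tested. Fits that leave 1 library out also hold fewer samples. The 64 member calls of the main fits were followed under the alternatives. Of their values there, 1412 still passed the thresholds in the same direction, 229 no longer passed and 0 reversed. Members not called in the main fit, including those that an alternative newly called, are not in these counts.

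Replicate numbers recur across diets, but nothing in the labels says that they mark a shared litter or day. Deviations of same-numbered samples from their group means correlated between -0.381 and 0.389 within a batch (median 0.0765), and 9 of 20 such pairs exceeded 0.1. Differently numbered samples correlated between -0.445 and 0.451 (median -0.025), and 17 of 67 pairs exceeded 0.1. These values do not settle whether the numbers pair samples, so the main fits left the numbers out and the replicate block was an alternative. The replicate block gave no smaller count of called members in any comparison. Derl3, with 4 to 38 counts a library, was the member most limited by depth, and DESeq2 gave it no adjusted p in batch 2 for HF against LF mice.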

Other observations

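Genes of transport from the ER to the Golgi apparatus, which come next on the secretory route, were described in the same fits. Of 25, 9 were higher in HF than in LF mice over both batches (9% of all genes) and 0 were lower (9.11%), with a median log2 fold change of 0.22. The COPII coat subunits Sec23b (0.31 ± 0.07) and Sec13 (0.34 ± 0.07) and the cargo receptor subunit Mcfd2 (0.36 ± 0.08) had the smallest adjusted p-values. In batch 2 alone 5 were higher (3.03% of all genes), and in batch 1 edgeR called 0 at a median of 0.24, with 12 higher and 0 lower at an unadjusted p under 0.05 (12% and 10.2% of all genes).

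The ATF4 arm of the stress response, which acts downstream of PERK and of amino acid shortage, was mixed. Of 12 genes, 3 were higher and 5 lower in HF than in LF mice over both batches (9% and 9.11% of all genes). The translation factor gene Eif2s1 was higher by 0.49 ± 0.11. Ppp1r15a, which encodes the phosphatase subunit GADD34, was lower by 0.80 ± 0.16 (a log2 fold change of -0.80), and Atf3 had a log2 fold change of -0.76 ± 0.16. Named to complete the counts, Trib3 (1.45) and Chac1 (2.25) were higher, and Ddit3 (-0.33), Cebpb (-0.34) and Sesn2 (-0.27) were lower. Some genes of this list were near the floor. Of the 12, 2 had means under 1 CPM in the LF samples of each batch, beside 0 in HF samples of batch 1 and 1 in those of batch 2. Atf4 itself stood at -0.06 and was not called, and in batch 1 alone edgeR called 0 of the 12, with 3 higher and 5 lower at an unadjusted p under 0.05 (12% and 10.2% of all genes).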
